A study of Mus musculus with 2 samples.

Results

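The tumour necrosis factor (TNF) superfamily was taken as the genes with a Tnfsf symbol that ends in a number, a Tnfrsf symbol that ends in a number or a number and a letter, or one of the symbols Tnf, Lta, Ltb, Ltbr, Fas, Fasl, Cd40, Cd40lg, Cd27, Cd70, Eda, Edar, Eda2r and Relt. This found 44 of 43346 annotated genes, 17 ligands and 27 receptors. The ligands are mostly trimeric proteins made at the cell surface, some of which are shed as soluble factors. They bind receptors that either carry a death domain, which can start apoptosis or inflammation, or recruit TRAF adaptors, which activate NF-kappaB and MAP kinase signalling. Decoy receptors bind ligand without signalling. In fat, TNF is best known as an inflammatory cytokine that lowers insulin responses and promotes lipolysis, and TWEAK, RANKL and ectodysplasin ligands act in other tissues on progenitors, bone and skin appendages.

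The series held a single group, subcutaneous fat pad (a white fat depot under the skin) of C57BL/6J mice aged 8 weeks, with male and female littermates pooled. No allele, agent or treatment is named in the labels, and the health state is given as unknown. The 2 libraries are called biological replicates 1 and 2 and come from separate tissue samples entered under the same donor record, so the spread between them may be partly technical. PolyA RNA longer than 200 nt was sequenced, after ribosomal RNA removal, as stranded paired reads of 76 nt with spike-in RNAs added. Without a condition to compare, the levels of the 44 genes and their differences between replicates 1 and 2 are described, with no test.

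Replicates 1 and 2 had 54752739 and 58687668 estimated counts and differed in their tissue markers. The 5 adipocyte markers (Adipoq, Plin1, Cidec, Lipe and Fabp4) summed to 4952 TPM (transcript level per length, scaled to a fixed total over all features) in replicate 1 and 17306 in replicate 2, and all 5 were over 2-fold higher in replicate 2. The 6 epithelial markers summed to 688 TPM in replicate 1 and 13.6 in replicate 2, and all 6 were over 2-fold higher in replicate 1, as were all 4 smooth muscle markers (4984 and 597 TPM in replicates 1 and 2). Macrophage markers summed to 655 and 416 TPM with 0 of 6 apart, while none of the 5 T cell markers reached a TPM of 1 in both libraries. Adipocyte markers were thus present in both libraries, but no set of markers for the subcutaneous depot was examined, so the labelled depot was not tested. Both libraries also held markers of other tissues, of which the epithelial and smooth muscle markers were higher in replicate 1. The skeletal muscle markers were uneven. Acta1 had 203.02 TPM in replicate 1 and 115.11 in replicate 2, Ckm had 3.23 and 0.32, and Myh4 had 0 counts in both. In bulk RNA, fewer cells of a type and less RNA per cell cannot be told apart.

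Most receptors were expressed in the fat pad and most ligands were not. A TPM of at least 1 in both libraries was reached by 22 of 27 receptors (81.5%) and 7 of 17 ligands (41.2%), together 29 of 44 genes (65.9%). The same level was reached by 29.4% of all annotated genes and 55.5% of protein coding genes. Tnfsf14 and Tnfrsf19 reached it in replicate 1 only, and the other 13 were below it in both. Of the 44 genes, 22 lie in 9 clusters with gaps of at most 200 kb. Summed over receptors the level was 531 TPM in replicate 1 and 431 in replicate 2, which was 5.03 and 8.01 times the ligand sums of 105 and 53.8 TPM in replicates 1 and 2.

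**Figure D1:**
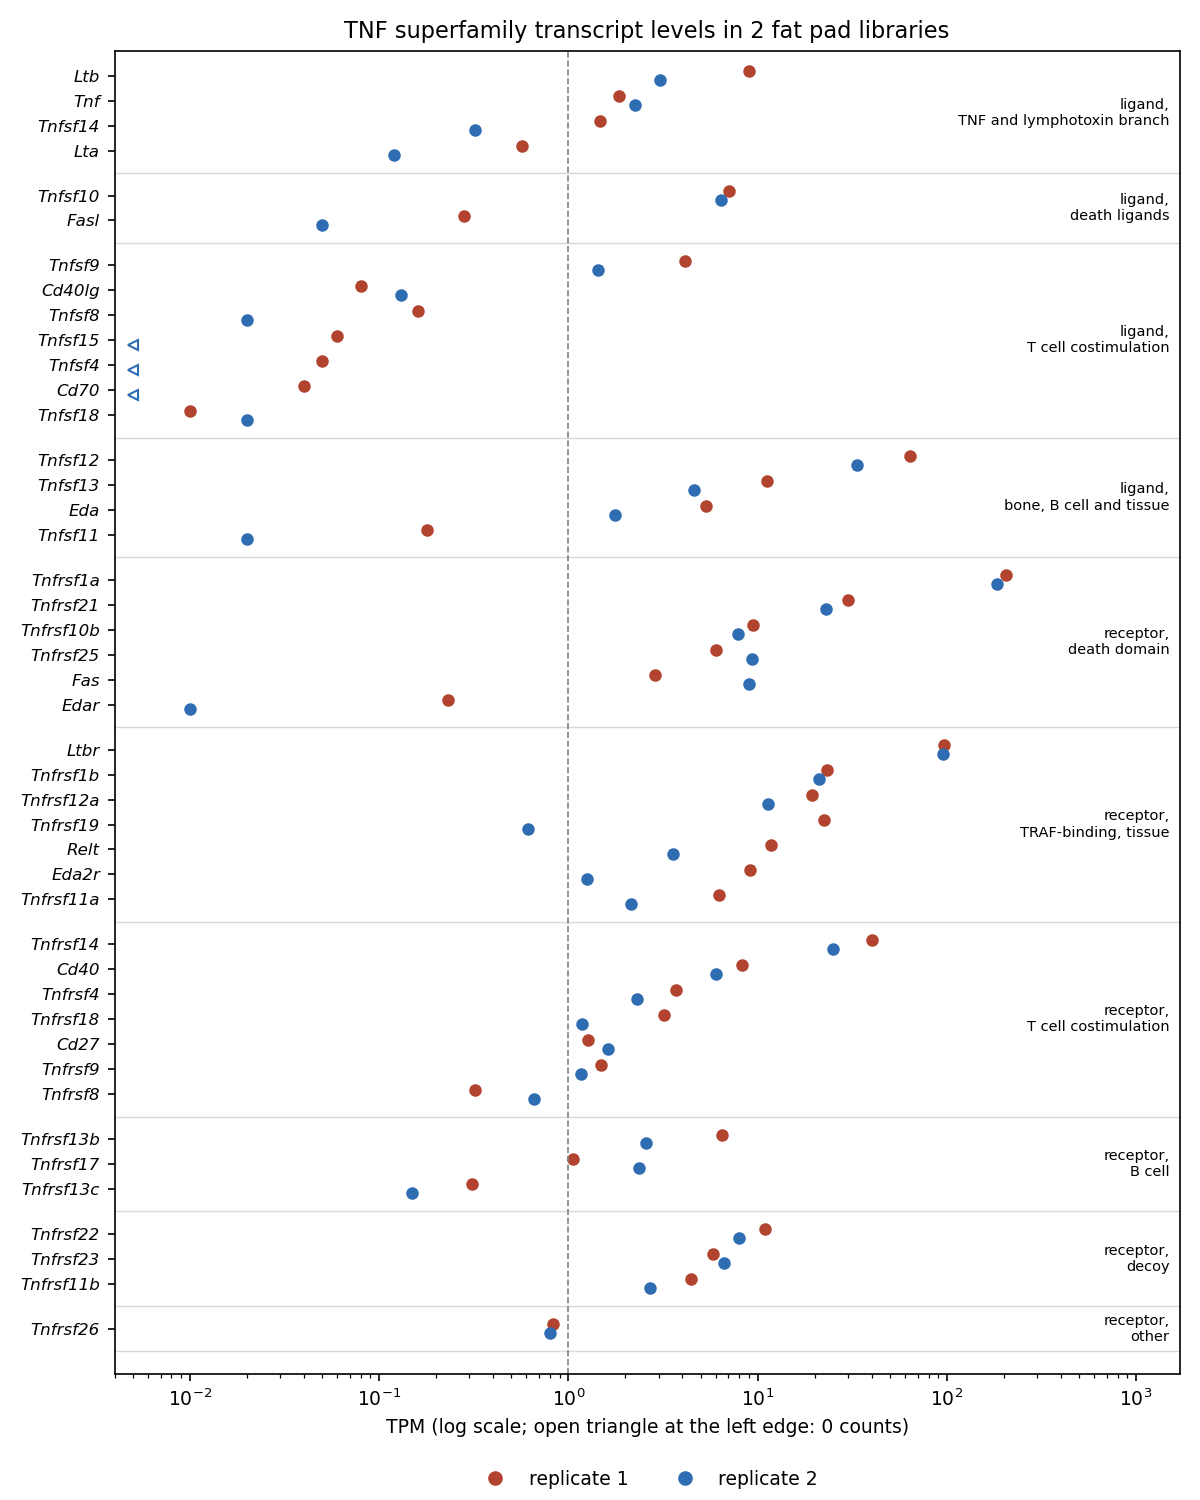
TPM (log scale) of each of the 44 genes in replicate 1 (red) and replicate 2 (blue), grouped by role, with a dashed line at a TPM of 1 and open triangles at 0 counts. Tnfrsf1a and Ltbr lie at the right, near 195 and 96.4 TPM on average, whereas 6 of 7 T cell costimulatory ligands lie left of the line.

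Among ligands, Tnfsf12 was the most abundant. It encodes TWEAK, which acts on mesenchymal and progenitor cells, and had 64.0 TPM in replicate 1 and 33.6 in replicate 2 (48.8 ± 21.4, SD, n = 2). It alone held 60.7% of ligand TPM in replicate 1 and 62.5% in replicate 2. Its neighbour Tnfsf13, which encodes the plasma cell survival factor APRIL, had 11.2 and 4.60 TPM in replicates 1 and 2. Both lie on the minus strand of GRCm38 chromosome 11, within 69682846 to 69695849, and share exons with Tnfsfm13 (10.6 and 7.23 TPM in replicates 1 and 2), an annotated gene that spans both on the same strand. The division of reads among these 3 genes was made by the authors' program, so their separate levels are uncertain.

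The TNF and lymphotoxin ligands were low. Tnf itself had 99 counts in replicate 1 and 141 in replicate 2, or 1.85 and 2.25 TPM (2.05 ± 0.283, SD, n = 2). Lymphotoxin beta (Ltb), which forms membrane trimers with lymphotoxin alpha, had 9.04 TPM in replicate 1 and 3.06 in replicate 2. Lta, the lymphotoxin alpha gene, had only 25 counts in replicate 1 and 6 in replicate 2, so the 3 neighbours Ltb, Tnf and Lta, within 10.9 kb of chromosome 17, differed widely in level. Tnfsf14, which encodes LIGHT, had 91 counts in replicate 1 and 23 in replicate 2 (1.47 and 0.32 TPM).

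The death ligand TRAIL (Tnfsf10) was steady in TPM, at 7.02 in replicate 1 and 6.42 in replicate 2, whereas Fas ligand (Fasl), made mainly by cytotoxic T and NK cells, had 18 counts in replicate 1 and 4 in replicate 2. Of the 7 ligands that costimulate lymphocytes, Tnfsf9 alone passed 1 TPM, with 4.14 TPM in replicate 1 and 1.43 in replicate 2. Cd40lg, Tnfsf8, Tnfsf15, Tnfsf4, Cd70 and Tnfsf18 had between 1 and 21 counts in replicate 1 and between 0 and 6 in replicate 2. In replicate 2 Tnfsf15, Tnfsf4 and Cd70 had 0 counts, which at a floor of 3 counts allows up to 0.0217, 0.0418 and 0.109 TPM. The 3 NK cell markers, none of which passed 1 TPM in both libraries, summed to 9.14 TPM in replicate 1 and 2.27 in replicate 2. Whether these cells contributed to the ligand levels was not tested. RANK ligand (Tnfsf11), which drives osteoclast formation, had 14 counts in replicate 1 and 2 in replicate 2.

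Receptor expression was led by Tnfrsf1a and Ltbr. Tnfrsf1a (ENSMUSG00000030341.13, chromosome 6, 125349362 to 125362484, plus strand), the widely expressed death domain receptor of TNF, had 204.8 TPM in replicate 1 and 184.6 in replicate 2 (195 ± 14.3, SD, n = 2), rank 652 of all genes. Ltbr (ENSMUSG00000030339.7, chromosome 6, 125306571 to 125313885, minus strand), the stromal receptor of lymphotoxin and LIGHT, had 97.1 and 95.8 TPM in replicates 1 and 2 (96.4 ± 0.962, SD, n = 2). These neighbours held 56.9% of receptor TPM in replicate 1 and 65.02% in replicate 2. The third gene of this 129.9 kb cluster, Cd27, a T cell costimulatory receptor, had 1.27 TPM in replicate 1 and 1.62 in replicate 2.

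Of the other death domain receptors, Tnfrsf21 had 30.0 and 23.1 TPM in replicates 1 and 2. Tnfrsf10b, the mouse death receptor of TRAIL, had 9.42 TPM in replicate 1 and 7.90 in replicate 2. The mouse decoy receptors of TRAIL were at similar levels, with Tnfrsf22 at 10.9 and 8.01 TPM and Tnfrsf23 at 5.80 and 6.66 TPM in replicates 1 and 2. A further gene of that chromosome 7 cluster, Tnfrsf26, was lower, at 0.83 TPM in replicate 1 and 0.80 in replicate 2. Osteoprotegerin (Tnfrsf11b), the secreted decoy of RANK ligand, had 4.47 TPM in replicate 1 and 2.71 in replicate 2, while RANK itself (Tnfrsf11a) had 6.26 and 2.15.

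Receptors that bind TRAF adaptors without a death domain were also well represented. Tnfrsf1b, the other TNF receptor, had 23.3 TPM in replicate 1 and 21.1 in replicate 2 (22.2 ± 1.55, SD, n = 2). Tnfrsf12a, the TWEAK receptor Fn14, had 19.3 and 11.4 TPM in replicates 1 and 2, and Relt, a receptor first described in lymphoid tissue, had 11.7 and 3.58. Tnfrsf14, the LIGHT receptor HVEM, had 40.1 TPM in replicate 1 and 25.2 in replicate 2, and Cd40, the receptor through which T cells activate B cells and macrophages, had 8.32 and 6.01. The T cell receptors Tnfrsf4, Tnfrsf18 and Tnfrsf9 were lower, between 1.48 and 3.72 TPM in replicate 1 and between 1.17 and 2.31 in replicate 2, and Tnfrsf8 was below 1 TPM in both.

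The receptors of B cell survival factors did not follow a common order. Tnfrsf13b (TACI) had 6.47 TPM in replicate 1 and 2.58 in replicate 2, and Tnfrsf17 (BCMA), a plasma cell receptor, had 1.06 and 2.36. Tnfrsf13c (the BAFF receptor) had 20 counts in replicate 1 and 11 in replicate 2. The 5 B cell markers summed to 6.17 TPM in replicate 1 and 6.47 in replicate 2, with 2 of 5 at 1 TPM or more in both libraries. Tnfsf13b, the gene of the ligand BAFF, whose symbol falls outside the patterns used, had 8.03 and 2.55 TPM in replicates 1 and 2.

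Set side by side per length, receptor exceeded ligand in both libraries in 16 of 23 chosen pairs of a ligand and an established receptor. The 23 do not cover every known pair, and leave out Tnfsf10 with its decoys Tnfrsf22 and Tnfrsf23 among others. The count of 16 thus depends on the choice of pairs. Both genes of the pair reached 1 TPM in both libraries in 9 pairs, and these did not share an order. The receptor was higher in both libraries for Tnf with Tnfrsf1a and Tnfrsf1b, Ltb with Ltbr and Tnfsf10 with Tnfrsf10b. The ligand was higher in both for Tnfsf9 with Tnfrsf9, Tnfsf12 with Tnfrsf12a, and Tnfsf13 with Tnfrsf13b and Tnfrsf17. In all other pairs with the receptor higher, the ligand was below 1 TPM in at least 1 library. Tnfrsf1a was 111 times Tnf in replicate 1 and 82.1 times in replicate 2, and Ltbr was 10.7 and 31.3 times Ltb. The TRAIL pair was close to even, with Tnfrsf10b at 1.34 times Tnfsf10 in replicate 1 and 1.23 times in replicate 2. The ligand was higher in both libraries in 6 pairs. One of these was the TWEAK pair, where Tnfrsf12a was 0.302 times Tnfsf12 in replicate 1 and 0.339 times in replicate 2, and the others joined Tnfsf9 to Tnfrsf9, Tnfsf13 to Tnfrsf13b and to Tnfrsf17, Tnfsf13b to Tnfrsf13c, and Eda to Edar. The pair of Eda and Eda2r changed order, with Eda2r at 1.70 times Eda in replicate 1 and 0.710 times in replicate 2. Transcript levels of a pair say nothing of which cells carry each protein.

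**Figure D2:**
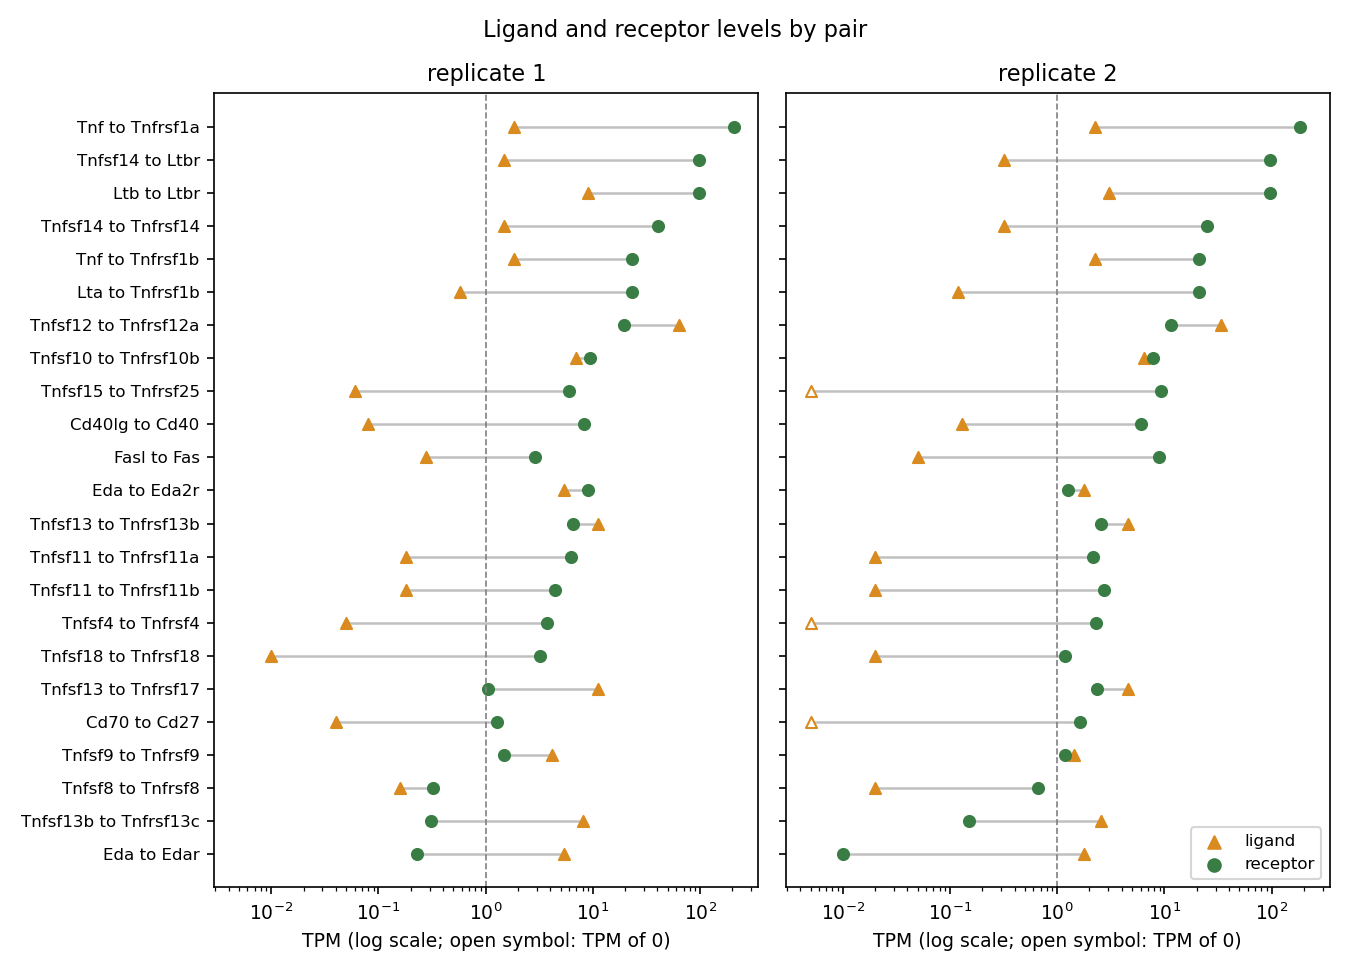
TPM (log scale) of the ligand (orange triangle) and receptor (green circle) of 23 pairs in replicate 1 (left) and replicate 2 (right), ordered by receptor level, with a dashed line at 1 TPM and open triangles for a TPM of 0. The receptor lies to the right of its ligand in both panels in 16 pairs, and the TWEAK pair is the most abundant of the 6 in the opposite order.

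Among genes with enough counts, replicates 1 and 2 differed most in Tnfrsf19, Eda2r and Fas. Ratios are replicate 1 over replicate 2, from counts scaled with TMM (trimmed mean of M values) and given with an exact 95% interval that covers counting error only. A gene whose scaled count averaged 100 or more was called over 2-fold apart when its interval lay wholly beyond 2-fold. Of the 44 genes 25 had that count, and 4 of the 25 (16%) were over 2-fold apart, against 23.1% of all 13424 genes with that count. In replicate 1, 2 were higher (12.6% of all genes), and in replicate 2 another 2 were higher (10.6% of all genes). The order of these shares turned with the setting. Under total count and under spike-in scaling 7 of 25 (28%) were called, against 26.7% and 25.8% of all genes, and with no count minimum 7 of 44 (15.9%) were called, against 10.1% of all annotated genes, those with no counts included. Of the remaining 21, all 7 ligands and 14 receptors, none was called.

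Tnfrsf19 (ENSMUSG00000060548.8, chromosome 14, 60963875 to 61046490, minus strand) encodes TROY, a receptor of skin appendages and the nervous system that is a target of Wnt signalling. It had 3583 counts in replicate 1 and 120 in replicate 2 (22.3 and 0.61 TPM), a scaled ratio of 22.4 (18.7 to 27.1). Eda2r (ENSMUSG00000034457.6, chromosome X, 97333840 to 97377216, minus strand), the receptor of an ectodysplasin isoform, had 853 counts in replicate 1 and 132 in replicate 2 (9.09 and 1.25 TPM), a ratio of 4.85 (4.04 to 5.87). The epithelial and smooth muscle markers given above were higher in replicate 1 too, as were the summed mesothelial markers (242 TPM in replicate 1 and 51.3 in replicate 2, with 1 of 3 over 2-fold apart), and their part in these ratios was not tested. Ngfr, a related neurotrophin receptor that the symbol patterns leave out, had 143 TPM in replicate 1 and 2.38 in replicate 2; it is named here with those values already seen. The 4 Schwann cell markers, cells known to carry that receptor, were in the opposite order, at 12.9 TPM in replicate 1 and 27.9 in replicate 2.

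Fas (ENSMUSG00000024778.8, chromosome 19, 34290666 to 34327772, plus strand), the death receptor of Fas ligand, had 125 counts in replicate 1 and 471 in replicate 2 (2.88 and 8.96 TPM), so that it was 5.02-fold higher in replicate 2 (4.11 to 6.16). Tnfrsf25 (ENSMUSG00000024793.10, chromosome 4, 152115934 to 152120119, plus strand), a death domain receptor best known on T cells, had 244 counts in replicate 1 and 457 in replicate 2 (6.01 and 9.37 TPM). It was 2.49-fold higher in replicate 2 (2.13 to 2.93), and this call was lost when libraries were scaled by total count or by spike-ins. Adipocyte markers (above) and the 5 endothelial markers (310 TPM in replicate 1 and 486 in replicate 2, 3 of 5 over 2-fold higher in replicate 2) moved the same way. The 5 T cell markers summed to 4.05 TPM in replicate 1 and 2.64 in replicate 2, of which Cd4, which macrophages can also express, held 1.99 and 0.58. Their median log2 ratio of scaled counts was −0.74, towards replicate 2, with Cd3e, Cd3d and Cd8a below 0 and Cd4 and Cd3g above. The part of these cell types in these ratios was not tested.

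The most abundant receptors lay on the other side of 1 by scaled count than by TPM. Tnfrsf1a had a scaled ratio of 0.721 (0.705 to 0.738), Ltbr of 0.645 (0.625 to 0.667) and Tnfrsf1b of 0.671 (0.638 to 0.705), although their TPM was higher in replicate 1. TPM was higher in replicate 1 for 35 of 44 genes, a count that was not made over all genes. The median TPM of protein coding genes was also higher in replicate 1, at 5.02 against 2.32 in replicate 2. The 35 of 44 is thus not read as particular to these genes. The scaled ratio was above 1 for 21 of the 38 genes whose scaled count averaged 10 or more. Of all 17180 genes with that count it was above 1 for 8625. Scaling by total count moved log2 ratios up by 0.51 and scaling by spike-ins by 0.46. Total count scaling turned the ratio to the other side of 1 for 7 of 38 genes (Tnfrsf1a, Tnfsf10, Tnfrsf14, Tnfrsf21, Tnfrsf22, Tnfrsf10b and Cd40), and spike-in scaling did so for 5 of these, all but Tnfrsf1a and Tnfsf10. Relative to the other genes of each library, the median log2 ratio of the 38 was 0.10, against 0.00 for all 17180 genes with that count. Over the 25 genes whose scaled count averaged 100 or more it was −0.0176, of the other sign. Over the 38 genes it was 0.89 for 11 ligands, 9 of them above 0, and −0.13 for 27 receptors, 12 of them above 0. The 9 ligands above 0 include Tnfsf14, Lta, Fasl and Tnfsf8, at 1.57 to 2.39, whose scaled counts averaged under 100. Of these, Lta, Fasl and Tnfsf8 had scaled counts under 10 in replicate 2. They met the minimum average of 10 only through replicate 1, where they were higher, as did the receptor Edar. The ligand median of 0.89 and the count of 9 thus depend in part on this minimum. The rest of the 9 averaged over 100 and lay at 0.25 to 0.90. The ligands below 0 were Tnf (−0.92) and Tnfsf10 (−0.51), each averaging over 100.

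**Figure D3:**
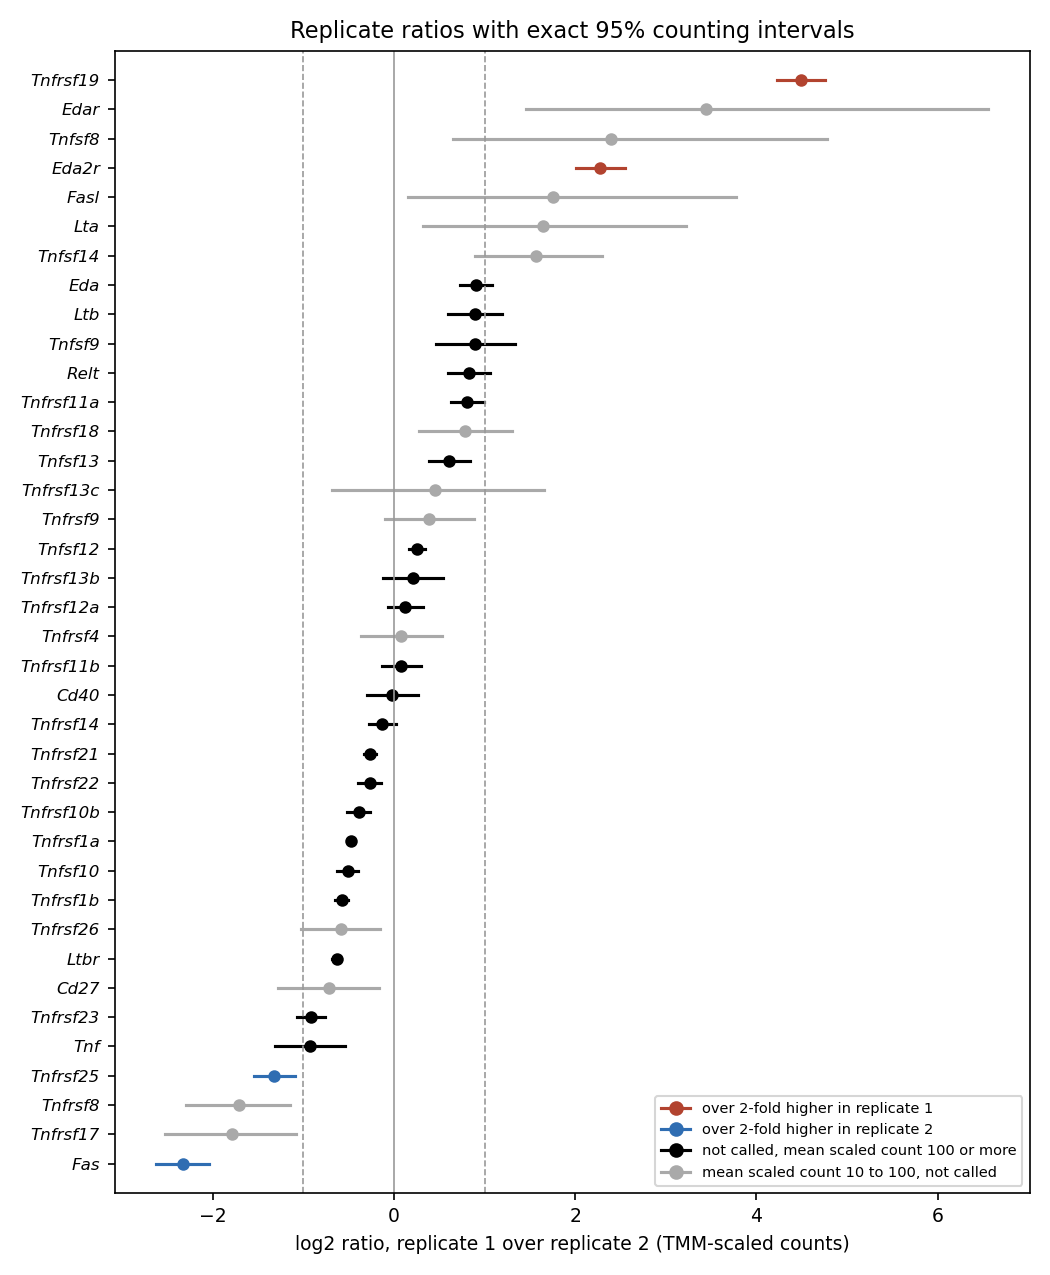
Log2 ratio of TMM-scaled counts, replicate 1 over replicate 2, for the 38 genes whose scaled count averaged 10 or more, with exact 95% counting intervals and dashed lines at 2-fold. Tnfrsf19 and Eda2r (red) lie wholly to the right, at 4.49 and 2.28, and Fas and Tnfrsf25 (blue) wholly to the left, at −2.33 and −1.32, while grey points had too few counts for a call.

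Genes that act downstream of the receptors were expressed almost throughout. A list of 39 genes covered TRAF adaptors, RIP kinases, caspase-8 regulators, ubiquitin enzymes and NF-kappaB subunits. Of these, 38 had 1 TPM or more in both libraries, against 29.4% of all annotated genes and 55.5% of protein coding genes. None of the 38 with enough counts was over 2-fold apart in either direction, against 23.1% of all 13424 genes with that count. The list's median log2 ratio was −0.06. Total count and spike-in scaling each put Map3k14, the kinase of the noncanonical NF-kappaB pathway, over 2-fold higher in replicate 1. The 6 most abundant were Rbck1 (244 TPM in replicate 1 and 148 in replicate 2) and Sharpin (67.9 and 47.3), both part of the linear ubiquitin ligase, the NF-kappaB subunits Rela (75 and 63.7) and Nfkb1 (71.7 and 46.0), the NF-kappaB inhibitor Nfkbia (61.9 and 77.6) and the caspase-8 regulator Cflar (44.8 and 49.2). Nfkbia and Cflar had scaled ratios of 0.511 (0.489 to 0.535) and 0.514 (0.495 to 0.534), close to the 2-fold bound. The gene below 1 TPM was Edaradd, the adaptor of Edar, with 83 counts in replicate 1 and 27 in replicate 2. Adam17, the protease that sheds TNF, had 27.6 TPM in replicate 1 and 31.5 in replicate 2.

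Ectodysplasin (Eda, ENSMUSG00000059327.5, chromosome X, 99975606 to 100400762, plus strand), a ligand of hair and gland development, had 915 counts in replicate 1 and 368 in replicate 2 (5.34 and 1.76 TPM), a scaled ratio of 1.87 (1.65 to 2.11). Among other differences, its transcripts vary by 6 bases at the end of an exon (GRCm38 chrX:100395144-100395149). As background, the protein with the pair of amino acids these bases encode binds Edar and the shorter protein binds Eda2r. The sequences are shown because these bases set which receptor the ligand can bind. They are from GENCODE transcripts, 5′ to 3′ on the plus strand, with the 6 bases in capitals.
Eda with the 6 bases: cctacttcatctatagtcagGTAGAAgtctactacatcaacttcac
Eda without the 6 bases: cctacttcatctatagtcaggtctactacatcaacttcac

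Transcripts with the 6 bases held 63.5% of Eda TPM in replicate 1 and 65.3% in replicate 2, and those without held 28.6% and 29.1%. Those without, Eda-205 and Eda-208, also lack 9 bases at the start of the same exon (chrX:100395019-100395027). Their shares are thus not of a form that differs by the 6 bases alone. The receptors Edar and Eda2r stood at different levels. Edar had 29 counts in replicate 1 and 2 in replicate 2 (0.23 and 0.01 TPM), a ratio of 10.9 (2.75 to 94.2) on too few counts for a call. Eda2r was the more abundant Eda receptor in both libraries. Under the deposited posterior mean estimates the share with the 6 bases was 55.5% in replicate 1 and 49.9% in replicate 2.

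A further stretch of 24 bases (chrX:100381455-100381478, plus strand) is shown because the deposited shares placed it differently in the replicates, a choice made with the values in view. The capitals mark these bases.
Eda with the 24 bases: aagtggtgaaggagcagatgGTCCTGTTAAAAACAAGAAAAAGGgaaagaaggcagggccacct
Eda without the 24 bases: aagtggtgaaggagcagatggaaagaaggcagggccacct

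Transcripts with them held 95.6% of Eda TPM in replicate 1 and 27.5% in replicate 2, and those without held 0% and 72.5%. The posterior mean estimates put the shares with them at 74.5% in replicate 1 and 45.1% in replicate 2, so the size of the difference depended on the estimate.

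Tnfrsf19 is annotated with a pair of transcripts that start far apart, at 61046469 (Tnfrsf19-201) and 61037950 (Tnfrsf19-202) of chromosome 14. Tnfrsf19-202 was assigned 22.8% of 3583 counts in replicate 1 (21.4 to 24.2, exact 95% interval for counting error only) and 0 of 120 in replicate 2. The upper limit in replicate 2 was 2.50% by a floor of 3 counts and 3.03% by the exact interval. These limits take the division of reads between the transcripts as given, so they do not bound the true share. As a share of TPM, Tnfrsf19-202 held 25.4% in replicate 1 and 0% in replicate 2. Under the posterior mean estimates its TPM share was 25.6% in replicate 1 and 15.5% in replicate 2, so a difference in start use rested on the estimate. RefSeq (GRCm38.p6) also gives a pair of starts, 386 and 37 bases upstream of those of Tnfrsf19-201 and Tnfrsf19-202. The windows from 250 bases before to 50 after these starts are printed 5′ to 3′ on the minus strand because this gene differed most between libraries. Capitals mark the GC box letters GGGCGG, searched on both strands with overlaps allowed.
Tnfrsf19 upstream start, chr14:61046806-61047105: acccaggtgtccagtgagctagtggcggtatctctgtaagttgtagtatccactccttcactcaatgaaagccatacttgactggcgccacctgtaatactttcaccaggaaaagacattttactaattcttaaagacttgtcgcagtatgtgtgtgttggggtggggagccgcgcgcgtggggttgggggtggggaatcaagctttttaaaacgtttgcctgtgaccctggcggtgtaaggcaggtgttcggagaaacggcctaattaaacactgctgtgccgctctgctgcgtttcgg
Tnfrsf19 downstream start, chr14:61037938-61038237: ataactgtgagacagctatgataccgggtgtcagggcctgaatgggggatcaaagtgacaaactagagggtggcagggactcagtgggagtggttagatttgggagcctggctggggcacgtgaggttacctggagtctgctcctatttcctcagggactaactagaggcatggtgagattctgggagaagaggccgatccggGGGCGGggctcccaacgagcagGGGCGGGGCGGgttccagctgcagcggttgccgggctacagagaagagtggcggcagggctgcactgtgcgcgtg

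GGGCGG was found in the downstream window and not in the upstream window. Among RefSeq windows of 34 of the 44 genes it was found in 19 of 37 (51.4%), against 35.7% of all 32851 windows. TATAAA was found in 7 of 37 (18.9%), against 13.6% of all. The windows of these genes had a median GC content of 57%, against 52.7% in all. These matches describe the letters and are not binding sites.

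Several other receptors were spread over transcripts. Of the 25 genes averaging 100 counts or more, 11 had 2 or more transcripts that each held at least 10% of the gene's TPM in both libraries: Cd40, Eda2r, Ltb, Relt, Tnfrsf11a, Tnfrsf13b, Tnfrsf14, Tnfrsf22, Tnfrsf23, Tnfrsf25 and Tnfsf13. The leading transcript was the same in both libraries for 21 of 25, with Eda, Eda2r, Relt and Tnfsf13 as exceptions, and a single transcript held at least 90% in both libraries for 11. Tnfsf13-201 held 73.9% in replicate 1 and 49.4% in replicate 2, against 26.1% and 50.6% for Tnfsf13-202. Cd40-203 held 64.0% of Cd40 TPM in replicate 1 and 60.3% in replicate 2, and Tnfrsf11a-201 held 71.3% and 77% of Tnfrsf11a TPM. In Relt Relt-201, of 2850 bases, held 40.9% in replicate 1 and 48.4% in replicate 2, and a transcript of 428 bases held 43.7% and 43.1%. In Tnfrsf14 a transcript of 394 bases, Tnfrsf14-203, held 34.3% in replicate 1 and 19.0% in replicate 2, with 92.9 and 36.9 of its 796 and 653 counts. Levels of Relt and Tnfrsf14 per length thus lean in part on short transcripts with few counts. Tnfrsf22-201 held 38.2% in replicate 1 and 45.5% in replicate 2, and the retained intron form Ltb-202 held 10.8% and 19.4% of Ltb TPM.

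Some leading transcripts are not annotated as coding. Tnfrsf23-201, annotated as subject to nonsense-mediated decay, held 73.1% of the decoy receptor gene's TPM in replicate 1 and 80.4% in replicate 2. A processed transcript of Tnfrsf13b held 81.7% in replicate 1 and 67.4% in replicate 2, against 15.6% and 32.7% for the coding Tnfrsf13b-201. By counts the processed transcript and Tnfrsf13b-201 had 109 and 88.8 in replicate 1, the same order, and 41.9 and 87.1 in replicate 2, the opposite order. TPM is per length, and the processed transcript is short (764 bases against 2556). The TPM of Tnfrsf13b thus rested largely on a short transcript that is not annotated as coding. A processed transcript of Tnfrsf25 led per length, with 37.1% in replicate 1 and 34.4% in replicate 2. By counts it had 43.3 and 72.8, below the 115 and 184 of the coding Tnfrsf25-202. Eda2r-203, a retained intron form, held 25.3% and 29.2% in replicates 1 and 2 and was not the leading transcript in either.

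**Figure D4:**
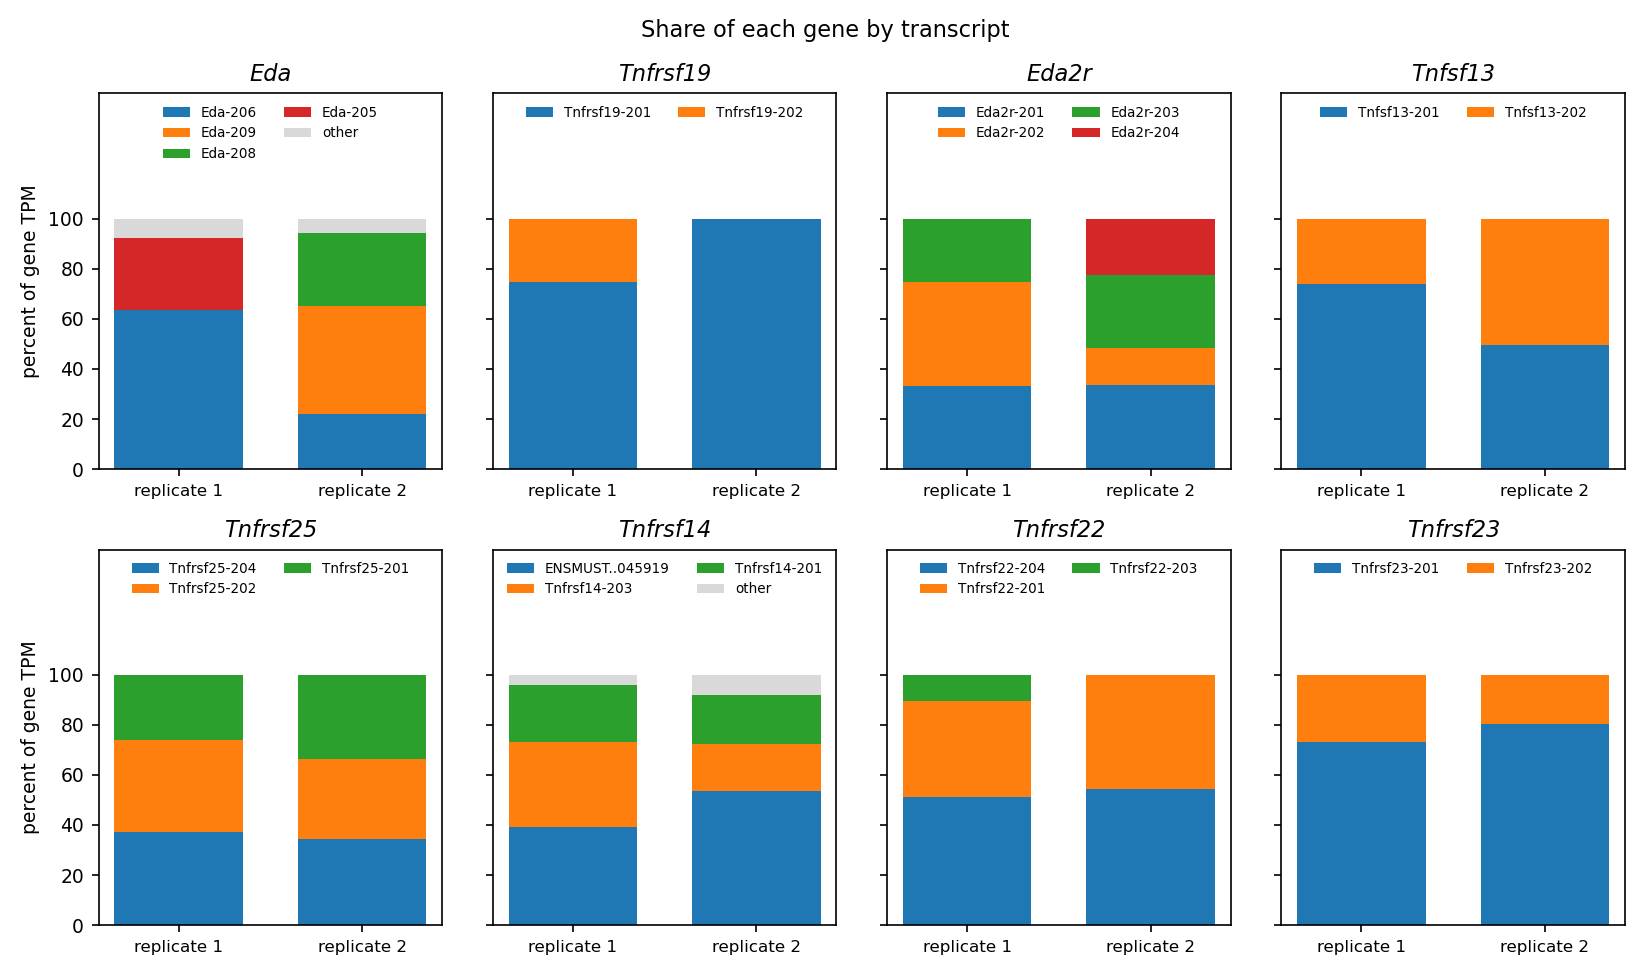
Percent of each gene's TPM held by its transcripts in replicate 1 (left bar) and replicate 2 (right bar) of each panel, for 8 genes. By the shares drawn, the downstream-start transcript Tnfrsf19-202 appears in replicate 1 only, although its posterior mean share in replicate 2 was 15.5%. Tnfsf13-202 takes 26.1% in replicate 1 and 50.6% in replicate 2.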

How the data were processed

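Both libraries were polyA RNA-seq of subcutaneous fat pad. The notes deposited with the files name genome build mm10 and GENCODE release M4 for the alignment; no source used here names the counting program. The deposited tables hold estimated counts (expected counts, in which reads matching several features are divided), TPM and FPKM over all features including spike-ins, and the percent of a gene's TPM per transcript, each also as posterior means. Symbols and coordinates are from GENCODE M21 (GRCm38, the build of mm10), matched by identifier for 42462 of 43346 genes; tRNA features had 0 counts.

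Expected counts of annotated genes were rounded and scaled with TMM (edgeR 4.0.16, R 4.3.3; factors 1.20 and 0.837 for replicates 1 and 2). Exact Clopper-Pearson 95% intervals (scipy 1.17.1) of the count split, and floors of 3 counts, cover counting error only, since reads carried no molecular identifiers. Estimated counts total 54752739 and 58687668 in replicates 1 and 2. With 1 library a side, no p was computed. The script was tested on simulated data that held counting error only, with the scaling factors known. That test checks the computation and says nothing of spread between animals or of the division of ambiguous reads. The symbol patterns, gene lists, pairs and tests were chosen with earlier results of these data known. Named are the 10 genes of highest mean TPM, all called over 2-fold apart, pairs where either gene averaged 1 TPM, genes with several main transcripts and the 6 most abundant signalling genes. Alternatives covered scaling (DESeq2 1.42.0 size factors, total count, spike-ins), count and TPM minimums, FPKM, posterior means and pseudocounts; those on transcript shares from posterior means were added after seeing the data. Tables on mm9 were not used here.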

Additional observations from a re-analysis of the deposited data

How the results depend on the processing

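No paired analysis was possible because the series has a single group. DESeq2 size factors and posterior mean counts gave the same 4 calls. Under total count and under spike-in scaling, 6 genes were over 2-fold higher in replicate 1 (Eda, Ltb, Relt and Tnfrsf11a added) and 1 in replicate 2 (Fas), 1 signalling gene was higher in replicate 1, and 26.7% and 25.8% of all genes were called. With a count minimum of 500, 13 of the 44 genes were considered, of which 1 (Tnfrsf19) was higher in replicate 1 and 0 in replicate 2 (7.69% called, against 20.3% of all genes); with no minimum 4 were higher in replicate 2 (Tnfrsf17 and Tnfrsf8 added) and 3 in replicate 1 (Edar added), 15.9% against 10.1% of all annotated genes. The median log2 ratio of the genes, 0.10, was 0.62 under total count scaling, 0.56 under spike-ins, 0.69 and 0.38 from TPM with pseudocounts of 0.1 and 1, 0.30 as a mean, and −0.0176, of the other sign, over the 25 genes with 100 counts or more; the cause was not tested. The 29 genes at 1 TPM in both libraries were 31 at 0.5 TPM, 21 at 2 TPM, 24 by FPKM, 29 by posterior means and 29 to 31 when each replicate was left out. The 11 genes with several main transcripts were 7 at a 20% share, 4 at 500 counts, 13 by posterior means and 12 to 14 when each replicate was left out. With 2 libraries, the spread of each level is known only roughly, and genes under 100 counts, most ligands among them, could not be called.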
